A study of Arabidopsis thaliana with 8 samples.

Results

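BGLU44, BGLU45 and UGT72E3 are 3 genes of glucoside metabolism, followed here in developing Arabidopsis thaliana seeds on Affymetrix ATH1 arrays. They were taken as the probe sets whose platform annotation names 1 gene only and carries 1 of these 3 symbols. Each gene had 1 such probe set, so the set is 3 of 22746 probe sets tested, of which 13513 name a single gene and cover 13356 genes. Of the other probe sets, 8730 carried no gene name in the annotation used and 503 named several genes. A gene not measured by name may therefore still have a probe set on the array. BGLU44, BGLU45 and UGT72E3 were picked because their signal was lower in the ttg1 mutant than in the wild type. That difference is therefore described below without a test, and nothing else is read from it. The 2 groups were the ttg1 mutant and wild-type Ler (Landsberg erecta), with 4 biological replicates and 1 array per replicate in each. TTG1 is a WD40-repeat protein that works with MYB and bHLH transcription factors in trichomes, root hairs and the seed coat. All samples were seeds taken out of siliques between the globular and the walking-stick stage of the embryo. The source labels carry a running suffix that is the same in both genotypes, and they do not say whether it stands for an allele, a batch or a sample. The labels thus do not name the ttg1 allele with certainty, give no account of the line in which it arose, and do not state whether replicates came from separate sowings. P-values therefore weigh the genotype difference against the variation between these samples only.

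Monolignols are the alcohols that plants polymerise into lignin, and they can be held as glucosides in the vacuole. Glucosyltransferases of the UGT72E group attach the glucose to monolignols or to the matching aldehydes, and beta-glucosidases such as BGLU45 and BGLU46 can take it off again. UGT72E3 acts on sinapyl and coniferyl alcohol in vitro, and BGLU45 hydrolyses monolignol glucosides such as coniferin. BGLU44 stands apart by function. It belongs to the branch of the same glycoside hydrolase family that includes beta-mannosidases, and it is not known as a monolignol glucosidase, so the name monolignol glucoside genes covers BGLU45 and UGT72E3 only.

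The values are RMA signals, taken as log2, relative to the median of each probe set over the 8 arrays. They carry no absolute level, so levels could not be compared between genes and the labelled tissue could not be checked by the level of seed markers. The array medians lay between -0.0126 and 0.0279. TTG1 had no probe set that names it alone and was not analysed here. Each sample is whole-seed RNA, in which fewer cells of a type and less RNA per cell cannot be told apart.

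BGLU45 (AT1G61810) showed the largest difference among the 3 genes. Its log2 values were -0.58, -0.43, -0.53 and -1.22 in ttg1 replicates 1 to 4, against 1.24, 0.90, 0.53 and 0.43 in Ler replicates 1 to 4. Every ttg1 value lay below every Ler value, with ttg1 replicate 4 far below the other ttg1 arrays and Ler replicates 1 and 2 above the other Ler arrays. The group means were -0.69 ± 0.36 in ttg1 and 0.77 ± 0.37 in Ler (SD, n = 4 each). The difference, ttg1 minus Ler, was -1.46 ± 0.21 (limma's moderated standard error), which is 2.76-fold lower signal in ttg1. Ordered from the lowest difference upward, BGLU45 stood at position 135 of 22746 probe sets.

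BGLU44 (AT3G18080) showed the most even values within each genotype. Its log2 values were -0.87, -0.56, -0.70 and -0.49 in ttg1 replicates 1 to 4, against 0.64, 0.78, 0.53 and 0.49 in Ler replicates 1 to 4. The groups were well separated, with a gap of 0.98 between the highest ttg1 and the lowest Ler value. The means were -0.66 ± 0.17 in ttg1 and 0.61 ± 0.13 in Ler (SD, n = 4 each), a difference of -1.26 ± 0.11 (SE) or 2.40-fold lower signal in ttg1. It stood at position 182 from the lowest difference.

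UGT72E3 (AT5G26310) showed the smallest difference of the 3. Its log2 values were -0.28, -0.16, -0.14 and -0.92 in ttg1 replicates 1 to 4, against 0.92, 0.52, 0.14 and 0.25 in Ler replicates 1 to 4. The groups did not overlap, but the gap between the highest ttg1 and the lowest Ler value was 0.28, narrower than the 0.86 of BGLU45. The means were -0.38 ± 0.37 in ttg1 and 0.46 ± 0.35 in Ler (SD, n = 4 each), a difference of -0.83 ± 0.20 (SE) or 1.78-fold lower signal in ttg1. Its position was 389 from the lowest difference.

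In each of the 3 genes all ttg1 values lay below all Ler values, which was so for 8.33% of all tested probe sets. Of all probe sets, 1.26% were at least 2-fold lower in ttg1, as BGLU44 and BGLU45 were. Because the genes were chosen on this contrast, these counts carry no evidence of their own.

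**Figure D1:**
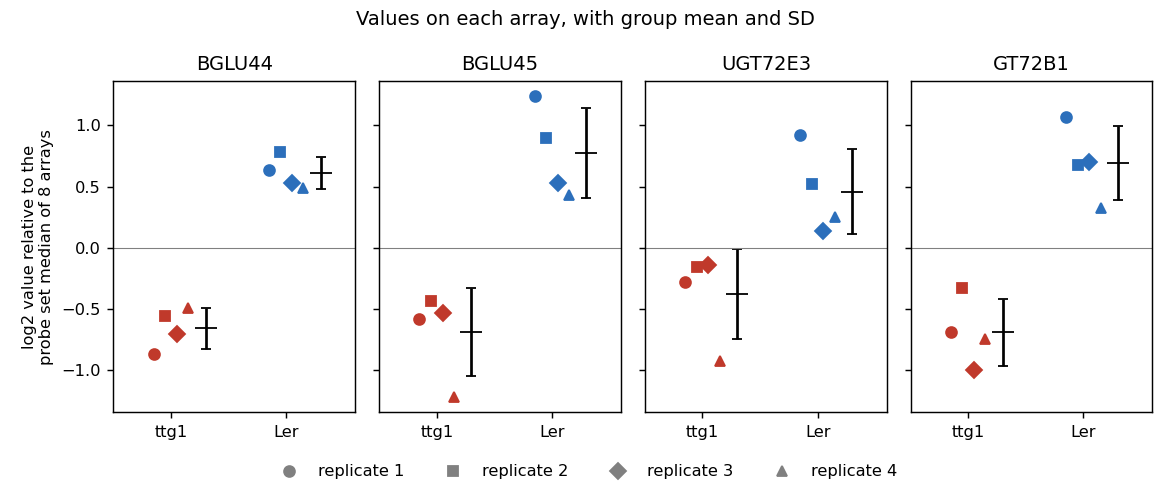
Log2 values of BGLU44, BGLU45, UGT72E3 and GT72B1 relative to the median of each probe set over 8 arrays (vertical axis), for ttg1 on the left and Ler on the right of each panel. Points are single arrays with 1 marker shape per replicate number, and the crossbar and whiskers give the group mean and SD (n = 4); in ttg1 the replicate 4 triangle of BGLU45 (-1.22) and UGT72E3 (-0.92) lies far below the other ttg1 points.

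The replicates of each genotype gave a measure that the choice of the genes had not used. BGLU45 and UGT72E3 deviated from their genotype means on the same arrays. Both were lowest in ttg1 replicate 4, at -0.54 and -0.55 relative to the ttg1 mean, and highest in Ler replicate 1, at 0.47 above the Ler mean in each gene. The array of ttg1 replicate 4 had the lowest of limma's array weights over all probe sets, 0.348, against 1.84 for Ler replicate 2. A low weight marks an array with more variable values. Pearson's r between the 2 genes over the 8 deviations was 0.98 and Spearman's rho 0.93. Without Ler replicate 4 and ttg1 replicate 4, with deviations taken again from the remaining arrays, r was 0.99 over 6 arrays. These 2 arrays were left out because they lay farthest from the median BGLU45 deviation. Ler replicate 1 was kept, so the 6 arrays still held one far from its genotype mean in both genes. The coefficients are given as descriptions, since all points come from 8 arrays and the groups of 4 are too small for a test within each genotype.

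BGLU44 did not share this pattern. Its deviations had r = 0.01 with those of BGLU45 and r = -0.08 with those of UGT72E3 over the same 8 arrays, with a Spearman's rho of 0.19 and -0.05. In ttg1 replicate 4, where the other two genes were lowest, BGLU44 had its highest ttg1 value, -0.49. Its pooled SD within genotypes was 0.15, equal to the median over all probe sets of 0.15. The pooled SD was 0.37 for BGLU45 and 0.36 for UGT72E3, which placed them at the 96.6 and 96.2 percentile of all tested probe sets.

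**Figure D2:**
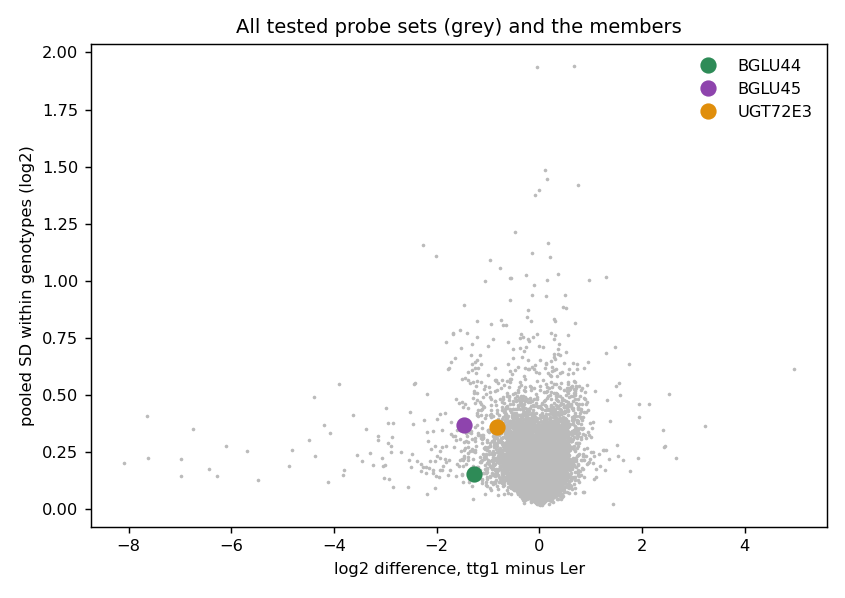
Log2 difference, ttg1 minus Ler (horizontal axis), against the pooled SD within genotypes on the log2 scale (vertical axis) for each of 22746 probe sets, in grey, with BGLU44, BGLU45 and UGT72E3 as coloured points. BGLU44 sits at an SD of 0.15, and BGLU45 and UGT72E3 sit at 0.37 and 0.36.

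Shared variation of this kind was common on these arrays. Of 13512 other probe sets that name 1 gene, 3.26% had r above 0.9 with BGLU45 over the deviations and 2.89% had r above 0.9 with UGT72E3, but only 0.0962% had r above 0.9 with BGLU44. UGT72E3 stood at position 20 of 13512 in likeness to BGLU45, and BGLU45 at position 22 in likeness to UGT72E3. The probe sets closest to BGLU45 by deviations were AT4G29420 (r = 0.996), AT4G28550 (r = 0.990) and AT5G59210 (r = 0.987). Those closest to UGT72E3 were AT5G42090 (r = 0.994), AT1G09575 (r = 0.994) and AT5G06260 (r = 0.989). For BGLU44 they were AT4G36500 (r = 0.966), AT4G19160 (r = 0.937) and AT3G59080 (r = 0.934), whose own differences between the genotypes were -0.04, -0.03 and -0.04 on the log2 scale.

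Over the 8 values themselves, where the genotype difference enters the coefficient, other genes came closest. BGLU44 was most like AT1G13970 (r = 0.989), AT2G45750 (r = 0.985) and AT4G20860 (r = 0.982). BGLU45 was most like AT2G42330 (r = 0.997), AT2G21420 (r = 0.992) and AT5G57330 (r = 0.991). UGT72E3 was most like AT5G42090 (r = 0.994), ARR15 (r = 0.992), a type-A response regulator of cytokinin signalling, and AT3G08890 (r = 0.987). By this measure UGT72E3 had r = 0.968 and BGLU44 r = 0.899 with BGLU45.

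PAP85, a vicilin-like seed storage protein gene and the 1 of 12 storage protein markers measured by name, also varied widely among replicates. PAP85 had log2 values of -1.05, 0.19, -0.19 and 2.17 in ttg1 replicates 1 to 4, against -1.02, -0.41, 0.29 and 2.28 in Ler replicates 1 to 4. It was highest in replicate 4 of both genotypes, where BGLU45 had its lowest value of each genotype. In Ler the 4 arrays had the opposite order in PAP85 and BGLU45. In ttg1 the orders were not opposite, since replicate 1 was lowest in PAP85 and was not the highest in BGLU45. UGT72E3 was lowest in replicate 4 of ttg1 and in replicate 3 of Ler. With both replicate 4 arrays left out, an alternative chosen after seeing the data, the differences were -1.36 for BGLU44, -1.40 for BGLU45 and -0.72 for UGT72E3. With PAP85 as a covariate in limma, also chosen afterwards, the standard errors of these differences were 0.11, 0.12 and 0.14, against 0.11, 0.21 and 0.20 without it. PAP85 itself hardly differed between the genotypes, so the covariate could not move the differences and is no check of them.

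**Figure D3:**
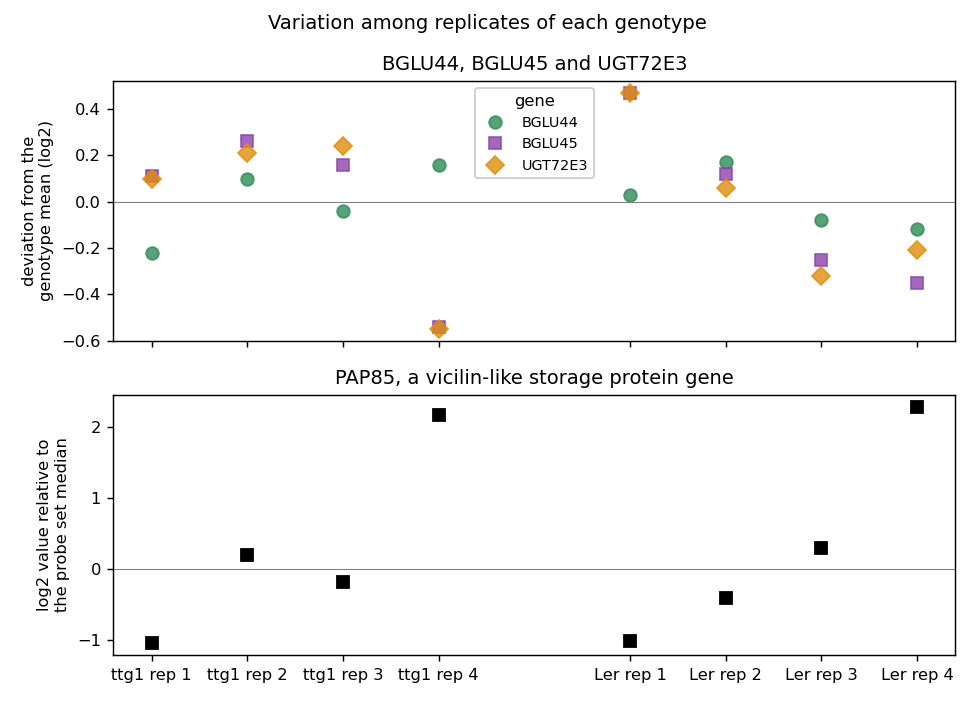
Upper panel, deviation of BGLU44, BGLU45 and UGT72E3 from their genotype mean on the log2 scale on each array, ttg1 on the left and Ler on the right; lower panel, log2 value of PAP85 relative to its median on the same arrays. BGLU45 and UGT72E3 lie at -0.54 and -0.55 in ttg1 replicate 4, where PAP85 is at 2.17.

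Few marker genes of other tissues had a probe set naming them alone. No such gene was past the threshold of the fit (limma, Benjamini-Hochberg adjusted p under 0.05). The 2 of 9 silique wall markers measured went opposite ways, and both had an unadjusted p under 0.05 in limma. ALC had a log2 difference of -0.47 with a 95% interval reaching down to -0.93 (adjusted p 0.215 in limma). YAB3 had a log2 difference of 0.67 with a 95% interval from 0.17 to 1.17 (adjusted p 0.116 in limma). Its ttg1 values, from 0.04 to 0.98, lay above its Ler values, from -0.77 to -0.04, an upward separation found in 6.51% of all tested probe sets. The mean of ALC and YAB3 ranged from -0.30 to 0.20 in ttg1 and from -0.23 to 0.10 in Ler. The 3 of 8 endosperm markers, AGL62, IKU2 and AGL28, had means from -0.07 to 0.25 in ttg1 and from -0.05 to 0.01 in Ler. The 2 of 7 photosynthesis markers, RCA and LHCB4.1, ranged from -0.28 to 0.73 in ttg1, with the highest mean in replicate 4, and their highest mean in Ler was 0.00. Of 11 markers of lignified xylem and silique valves only GUT2, a glycosyltransferase of xylan synthesis, was measured by name. Its log2 difference was -0.23 ± 0.10 (SE), with a 95% interval from -0.44 to -0.02. The adjusted p was 0.176 and the unadjusted p under 0.05 in limma. All ttg1 values of GUT2 lay below all its Ler values, as in 8.33% of all tested probe sets. The part of other tissues in the values of BGLU44, BGLU45 and UGT72E3 was not tested.

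The remaining genes of their clades, BGLU46, BGLU47, BGLU43, UGT72E1 and UGT72E2, were measured by name on the same arrays, and none of these 5 passed the test. BGLU46, the other well-described monolignol glucosidase and within 3 annotated genes of BGLU45 on the chromosome, had log2 values of 0.00, 0.00, 0.03 and -0.48 in ttg1 replicates 1 to 4, against 0.15, 0.27, -0.17 and -0.20 in Ler replicates 1 to 4. The groups overlapped, and the difference was -0.13 ± 0.14 (SE) with a 95% interval from -0.45 to 0.19. BGLU47, the remaining gene of that clade, was apart in the other direction, with values from 0.02 to 0.30 in ttg1 and from -0.34 to -0.02 in Ler. Its log2 difference was 0.35 ± 0.10 (SE) with a 95% interval from 0.13 to 0.56 and an adjusted p of 0.0665 in limma. Such a separation in the upward direction was found in 6.51% of all tested probe sets. The gene passed in limma with a replicate block (adjusted p 0.0469) and after quantile normalization of the arrays (adjusted p 0.0419). It also passed with array weights, with a PAP85 covariate and without Ler replicate 4. With median centring (adjusted p 0.0658 in limma) or robust eBayes (adjusted p 0.066) it did not pass. The same was so with both replicate 4 arrays or any other single array left out.

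BGLU43, within 3 annotated genes of BGLU44 and its relative in the beta-mannosidase branch, had log2 values of -0.25, -0.06, 0.09 and 0.01 in ttg1 replicates 1 to 4, against 0.12, 0.02, -0.05 and -0.01 in Ler replicates 1 to 4. The groups overlapped. Its difference was -0.07 ± 0.09 (SE) with a 95% interval from -0.27 to 0.13. Whether it differed from BGLU44 was not tested. The platform annotation names 1 gene for each of these probe sets, but whether their probes bind transcripts of the neighbouring gene was not tested.

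UGT72E2, which makes the glucosides of coniferyl and sinapyl alcohol, had log2 values of -0.08, -0.07, 0.23 and 0.34 in ttg1 replicates 1 to 4, against -0.24, 0.27, -0.13 and 0.07 in Ler replicates 1 to 4. Its difference was 0.11 ± 0.13 (SE), with a 95% interval from -0.19 to 0.41. UGT72E1, which prefers the aldehydes, had a difference of 0.09 ± 0.11 (SE), with a 95% interval from -0.16 to 0.33. The adjusted p in limma was 0.665 for UGT72E2 and 0.676 for UGT72E1. Whether they differed from UGT72E3 was not tested.

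Of the beta-glucosidase family, 18 of 38 genes other than BGLU44 and BGLU45 were measured by name. BGLU25 fell in ttg1, and the other 17 did not pass the test. Over all probe sets, 3.96% were lower and 1.76% were higher in ttg1 at an adjusted p under 0.05. BGLU25 (AT3G03640) had log2 values of -0.16, -0.58, -0.33 and -0.86 in ttg1 replicates 1 to 4, against 0.27, 0.28, 0.22 and 0.16 in Ler replicates 1 to 4. All ttg1 values were below all Ler values, as in 8.33% of all tested probe sets, and the spread was wider in ttg1. The log2 difference was -0.72 ± 0.13 (SE), 1.64-fold lower, with an adjusted p of 0.0112 in limma. BGLU25 did not pass without variance moderation or at a threshold of 0.01. The median log2 difference of the 18 genes was -0.01, beside 0.025 over all probe sets, and 10 were below and 8 above 0. Among the rest, BGLU40 and BGLU41 had log2 differences of -0.20 and 0.11, BGLU42 had a 95% interval from -0.21 to 0.21, and 2 of the 18 genes had an unadjusted p under 0.05.

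**Figure D4:**
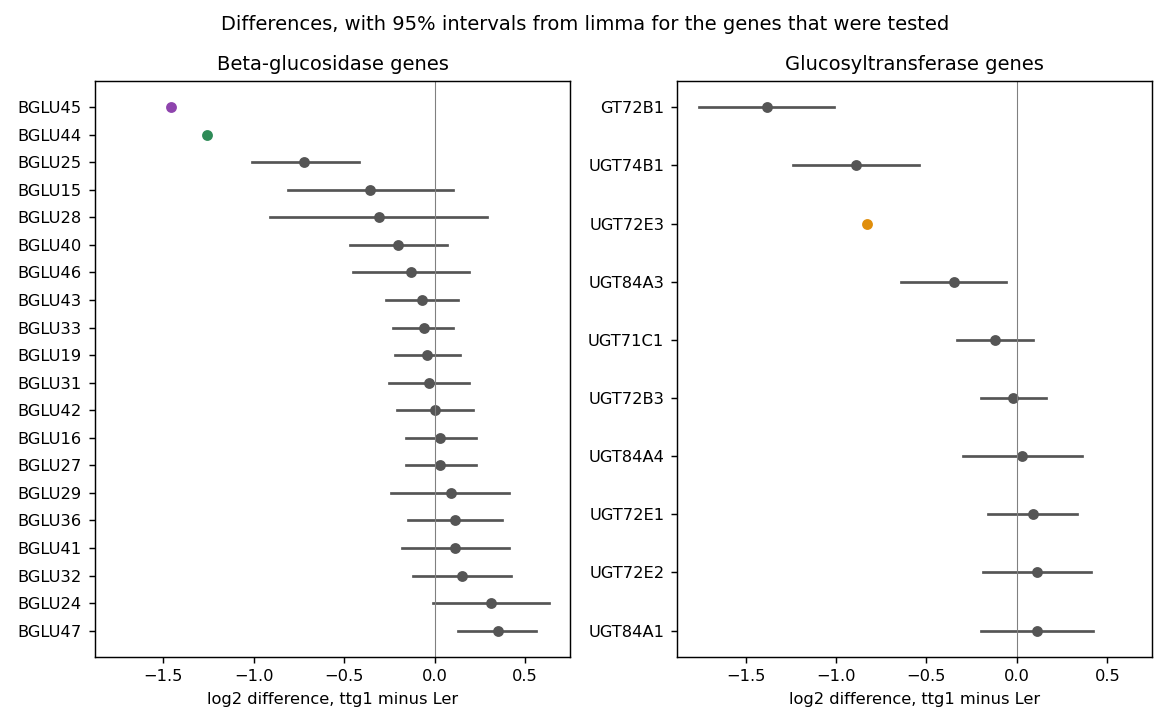
Log2 difference, ttg1 minus Ler (horizontal axis), as a point for each beta-glucosidase gene measured by name (left) and each measured gene of the glucosyltransferase list (right), in order of the difference, with lines for the 95% intervals from limma of the genes that were tested. BGLU44, BGLU45 and UGT72E3 are coloured and have no interval. BGLU45 at -1.46 and BGLU44 at -1.26 lie to the left of BGLU25 at -0.72, and GT72B1 at -1.38 lies to the left of UGT72E3 at -0.83.

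A list of 15 other glucosyltransferase genes took in the UGT72 family and enzymes acting on phenylpropanoids and other small molecules. Of these genes, 9 were measured by name and 2 fell in ttg1. Among all tested probe sets, 3.96% fell by the same limma threshold. The list was drawn up when earlier results of these data were known, and its count was not tested against that share. GT72B1 (AT4G01070), also known as UGT72B1, conjugates xenobiotic phenols and monolignols. Its log2 values were -0.69, -0.33, -1.0 and -0.74 in ttg1 replicates 1 to 4, against 1.07, 0.68, 0.70 and 0.33 in Ler replicates 1 to 4. No ttg1 value reached the lowest Ler value, as in 8.33% of all tested probe sets, and in ttg1 the lowest array was replicate 3. The log2 difference was -1.38 ± 0.17 (SE), 2.60-fold lower, with an adjusted p of 0.000731 in limma, and it ranked at position 153 from the lowest difference.

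UGT74B1, the other gene of the list that fell, is an enzyme of glucosinolate synthesis and not of monolignol metabolism. It was 1.85-fold lower in ttg1 (log2 difference -0.89 ± 0.16, adjusted p 0.00861 in limma). The 7 that did not pass included UGT84A3, a hydroxycinnamate glucosyltransferase, at -0.35 ± 0.13 (SE, adjusted p 0.149 in limma), and its relatives UGT84A1 and UGT84A4 at 0.11 and 0.03. The median log2 difference of the 9 genes was -0.02, beside 0.025 over all probe sets. Without both replicate 4 arrays the same count of 2 genes was lower.

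Few genes that make monolignols or polymerise them had a probe set naming them alone. From the list of monolignol synthesis, 2 of 27 genes had a named probe set and neither passed. HCT, the hydroxycinnamoyl transferase that leads into coniferyl and sinapyl alcohol, had values from -0.21 to -0.02 in ttg1 and from 0.02 to 0.33 in Ler. Such a downward separation was found in 8.33% of all tested probe sets. The log2 difference of HCT was -0.28 ± 0.09 (SE, adjusted p 0.0997 in limma). ALDH2C4, which oxidises the aldehydes to ferulic and sinapic acid, had -0.21 ± 0.10 (SE, adjusted p 0.234 in limma). Of these 2 genes, 1 had an unadjusted p under 0.05.

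For lignin polymerisation and transport, 5 of 30 listed genes had a named probe set and none passed, with 1 at an unadjusted p under 0.05 in limma. The peroxidase genes AT5G64120 and AT2G41480 had log2 differences of 0.29 ± 0.12 and 0.35 ± 0.16 (SE), and the laccase gene LAC16 had 0.22 ± 0.10 (SE), with adjusted p of 0.177, 0.220 and 0.219 in limma. The median of the 5 was 0.22, beside 0.025 over all probe sets. Of 22 genes of mannan metabolism only CSLA03, a member of the glucomannan synthase family, was measured by name. Its log2 difference was -0.01 ± 0.08 (SE), and its sign changed with quantile normalization. None of the 23 lignin and secondary wall regulators on the list had a probe set naming it alone, and they were not analysed here. Near UGT72E3 on the chromosome, AT5G26330 was the nearest gene with a probe set naming it alone, within 3 annotated genes. Its log2 difference was 0.03 ± 0.08 (SE).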

How the data were processed

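RNA of 8 samples was hybridised to 1 array each. The deposited values were made with RMA, per the submitters' processing notes, with no version given. Within 5e-07, the median of every row over the 8 arrays is 0; this centring was found from the values, and a log2 scale of the deposited values is inferred from RMA, since the labels do not state it; every fold rests on it. A filter on dim probe sets was not possible, and signal over background is unknown. Of 22810 probe sets 64 Affymetrix controls were left out. Genes were named from the platform annotation where it lists 1 gene, and 13436 of these 13513 probe sets were matched to the RefSeq table of TAIR10.1 by gene ID.

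The difference ttg1 minus Ler was fitted with limma 3.58.1 in R 4.3.3 (lmFit, eBayes, no covariates, two-sided) and the p-values of 22746 probe sets were adjusted after Benjamini and Hochberg (threshold 0.05). On simulated data of this size (log2 changes) the step found 27 of 50 probe sets shifted by 0.5 and 49 of 50 shifted by 1, with 11 false calls among 22546. The simulated noise was normal and independent between probe sets, and fewer probe sets were shifted than were called here. On the real arrays many probe sets vary together, so these counts need not hold for them. The members and the lists were chosen with earlier results of these data known. Named were the members, their nearest relatives, the next measured gene on each side within 3 genes, up to 4 called genes per list (where fewer than 2 passed, the 2 smallest adjusted p), and the 3 genes most like each member by Pearson's r. AT2G41480, UGT84A1, UGT84A3, UGT84A4 and the markers were named after their values were seen. Alternatives were a replicate block, quantile normalization, median centring, array weights, robust eBayes, unmoderated variances, a threshold of 0.01 and leaving out each array.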

Additional observations from a re-analysis of the deposited data

Results flagged for a closer look

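In groups of 4 arrays, a value was marked when its gap to the nearest other value exceeded Dixon's 95% critical share of the range of the group, which chance does for about 1 in 20 groups; 40 groups of 20 genes were looked at. BGLU46 had -0.48 in ttg1 replicate 4, far below the other ttg1 values. BGLU42 had 0.27 in ttg1 replicate 1, above its other ttg1 values. AT5G64120 had -0.28 in Ler replicate 1, below its other Ler values. No array of BGLU44, BGLU45 or UGT72E3 was marked. Even so, ttg1 replicate 4 lay far below the other ttg1 arrays in BGLU45 (-1.22) and in UGT72E3 (-0.92).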

How the results depend on the processing

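The differences of BGLU44, BGLU45 and UGT72E3 moved by less than 1 SD within genotypes with quantile normalization, median centring and array weights. The same held with both replicate 4 arrays left out and with each array left out. Their sign was also kept, but leaving out or weighting arrays could not reverse it, since all ttg1 values lay below all Ler values. Median centring could not reverse it either, as the array medians lay between -0.0126 and 0.0279. The replicate block and the PAP85 covariate could not move the differences. With each array left out in turn they ranged from -1.32 to -1.19, from -1.58 to -1.29 and from -0.94 to -0.65. The counts over all probe sets (400 higher, 900 lower) were less stable. They were 687 higher with the replicate number as a block, 786 higher with array weights, 168 higher and 409 lower without variance moderation, 112 higher and 414 lower at a threshold of 0.01, and 1170 higher and 1673 lower with PAP85 as a covariate. With 1 array left out they ranged from 164 to 401 higher and from 509 to 854 lower; the low counts came without Ler replicate 1, 2 or 3. The cause was not tested. In the beta-glucosidase family 1 gene, BGLU47, was higher with the block, quantile normalization, array weights, PAP85 as a covariate or without Ler replicate 4 (0 to 1 with 1 array left out), and 0 genes were lower without variance moderation or at 0.01, where BGLU25 did not pass. Of the glucosyltransferases 1 gene was lower without variance moderation. Among the 17 other named genes and 255 values 11 changed sign, all of genes near 0: CSLA03 was 0.01 with quantile normalization, 0.03 with array weights and 0.02 without ttg1 replicate 2 or 4 or Ler replicate 1 (-0.05 to 0.02 with 1 array left out); BGLU42 was 0.03 without both replicate 4 arrays and 0.01 to 0.03 without ttg1 replicate 2, 3 or 4 or Ler replicate 3 (-0.08 to 0.03 with 1 array left out); and AT5G26330 was -0.01 without Ler replicate 3 (-0.01 to 0.05 with 1 array left out). No pairing by replicate number was established: same-numbered deviations correlated between -0.313 and 0.482, and 2 of 8 arrays, both replicate 4, correlated best with their own number. Whether the suffix shared by the genotypes in the labels marks a batch is not stated. With the replicate block, balanced by design, the differences of BGLU44 (-1.26), BGLU45 (-1.46) and UGT72E3 (-0.83) are fixed, and their standard errors were 0.11, 0.13 and 0.15. Because the values are centred, the limit set by signal over background is unknown.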

Other observations

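Several other beta-glucosidase genes had their lowest ttg1 value in replicate 4, the array in which BGLU45 and UGT72E3 were lowest. This was so for 8 of the 18 other family genes (44.4%), beside 26.9% of all tested probe sets. Some of the 8 were lowest there only narrowly. BGLU42 had -0.06 in ttg1 replicate 4 and -0.04 in replicate 2, and BGLU27 had -0.02 in replicate 4. The count was not planned and was not tested. BGLU15 had log2 values of -0.16, -0.08, 0.15 and -0.99 in ttg1 replicates 1 to 4, against 0.25, 0.10, -0.03 and 0.03 in Ler replicates 1 to 4. BGLU28 had -0.36, -0.07, 0.38 and -0.89 in ttg1 and 0.51, 0.27, -0.55 and 0.07 in Ler. BGLU29 had 0.15, 0.24, 0.10 and -0.48 in ttg1 and 0.10, -0.10, -0.19 and -0.14 in Ler, a log2 difference of 0.09. BGLU15, BGLU28 and BGLU29 are neighbours by locus number, and none of them passed the test between the genotypes (adjusted p 0.326, 0.528 and 0.771 in limma). They were chosen after their values were seen.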
